A study of Mus musculus with 7 samples.

Results

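The genes described here encode the 4 tissue inhibitors of metalloproteinases (Timp1, Timp2, Timp3, Timp4), both plasminogen activators (Plat, Plau), the cell surface receptor of urokinase (Plaur) and the serpin protease nexin-1 (Serpine2). They were chosen by symbol, and 7 of the 8 were measured among 22180 genes. Serpine2 was not analysed here, since no probe set carried that symbol alone. Their RNA was compared between digit blastemas of C57Bl/6 mice, harvested 2 weeks after amputation (3 arrays), and uninjured digits of C57Bl/6 mice (4 arrays). A blastema is the mass of proliferating cells that forms on the stump of an amputated digit tip and rebuilds it. The labels call the samples of each group biological replicates. The sources used here do not give age, sex, the length of digit taken or any pooling of digits.

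TIMPs are small secreted proteins that occupy the active site of matrix metalloproteinases and so limit the breakdown of collagen and other matrix. Timp1 and Timp2 are soluble, and Timp3 binds to the matrix and also inhibits ADAM and ADAMTS proteases. The plasminogen activators, tissue-type (Plat) and urokinase-type (Plau), are serine proteases that cut plasminogen into plasmin. Plasmin dissolves fibrin and can activate several metalloproteinase precursors. Plaur holds urokinase at the cell surface, and serpins such as protease nexin-1 inactivate the activators and thrombin. In bone and healing skin, turnover of the matrix depends on the balance between such proteases and their inhibitors.

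Each gene had 1 probe set, and levels are log2 values from RMA, a procedure that corrects background, normalizes arrays and summarises probes. Arrays have no read depth, and the number of arrays (7) limits the precision. Array medians lay between 5.53 and 5.58. The files hold no detection calls, so a proxy for background was taken from olfactory receptor genes, as the 95th percentile of their means (5.52). Arrays correlated across genes at r = 0.988 to 0.992 within blastema, 0.986 to 0.991 within uninjured digit and 0.964 to 0.979 between groups. Called means an adjusted p under 0.05 from limma, a moderated linear model, over all 22180 genes. In bulk tissue, more cells of a type and more RNA per cell cannot be told apart.

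Of the 7 measured genes, 4 rose in the blastema (Timp1, Plat, Timp2 and Plaur), 0 fell, and Timp3, Timp4 and Plau did not pass. Of all genes, 4.98% were called higher and 4.66% lower, 9.64% in all. All 4 rose at least 2-fold, and 1.53% of all genes were both called and at least 2-fold higher. The same 4 genes had every blastema array above every uninjured array, as 10.4% of all genes did, and 0 had every blastema array below, as 10.6% did. The median log2 fold change was 1.05 over the 7 genes and -0.0054 over all genes tested. Scaling each array to 7 housekeeping genes moved the median of all genes to -0.33 and gave 497 genes higher and 5926 lower, in place of 1105 and 1034. Of those 7 genes, B2m (2.53-fold) and Gapdh (1.24-fold) were themselves called higher in the blastema. Under that scaling the same 4 genes were called higher, with log2 fold changes of 2.22, 1.55, 0.98 and 0.72 for Timp1, Plat, Timp2 and Plaur.

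**Figure D1:**
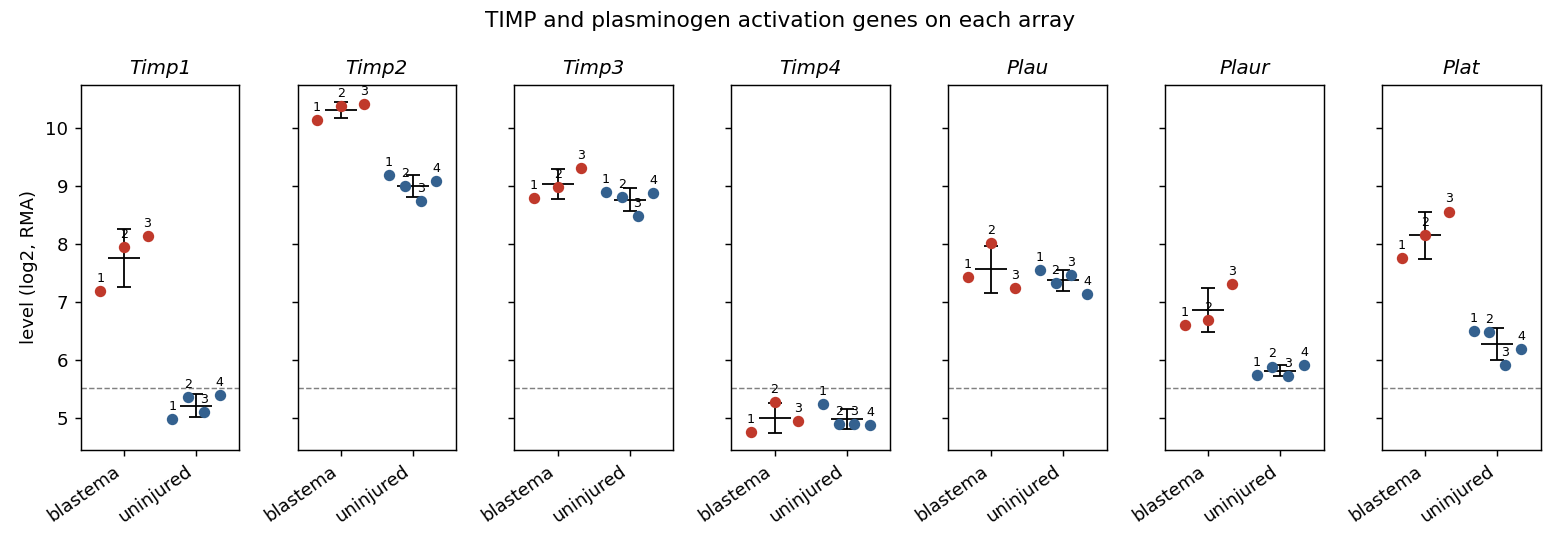
Level (log2, RMA) of the 7 measured genes on each array, with blastema (red, n = 3) left of uninjured digit (blue, n = 4). Digits give the replicate number, bars the mean ± SD, and the dashed line the background proxy of 5.52. The groups are apart for Timp1, Timp2, Plaur and Plat and overlap for Timp3, Timp4 and Plau.

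Timp1, a soluble inhibitor that also binds the precursor of the gelatinase Mmp9, had the largest change of the 7. Its level was 7.20, 7.95 and 8.14 on the blastema arrays, against 4.99, 5.36, 5.10 and 5.40 on the uninjured arrays. All uninjured values were under the background proxy, and all blastema values were above it, with array 1 the lowest. The means were 7.76 ± 0.50 (SD, n = 3) in blastema and 5.21 ± 0.20 (SD, n = 4) in uninjured digit. The fitted log2 fold change was 2.55 ± 0.23 (SE, limma adjusted p = 0.00194). Because no uninjured value was above background, the size of the rise has only a lower bound. Set against the proxy, the blastema mean was at least 4.73-fold higher (2.24 on the log2 scale).

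Timp2 inhibits metalloproteinases and, bound to Mmp14 at the cell surface, takes part in the activation of the Mmp2 precursor. It lay at 10.14, 10.38 and 10.41 on the blastema arrays, against 9.19, 8.9997, 8.75 and 9.08 on the uninjured arrays. The groups were apart by almost a whole log2 unit, and every value was far above background. The means were 10.31 ± 0.15 (SD, n = 3) in blastema and 9.0035 ± 0.19 (SD, n = 4) in uninjured digit. Timp2 thus rose 2.47-fold, by 1.30 ± 0.12 (SE) on the log2 scale (limma adjusted p = 0.00206).

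Timp3, the inhibitor bound to the matrix, lay at 8.79, 8.99 and 9.31 on the blastema arrays, against 8.89, 8.81, 8.48 and 8.87 on the uninjured arrays. The groups overlapped, with blastema array 1 under 3 of the 4 uninjured arrays. The log2 fold change of 0.26 had a 95% interval of -0.09 to 0.61 (limma adjusted p = 0.329), and it was -0.06 under housekeeping scaling. An increase of more than 0.61 therefore lies outside the interval of these arrays.

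Timp4, a TIMP with a narrow tissue range, lay at 4.76, 5.27 and 4.95 on the blastema arrays, against 5.25, 4.90, 4.90 and 4.89 on the uninjured arrays. All 7 values were under the background proxy of 5.52. The log2 fold change was 0.01 (95% interval -0.32 to 0.34, limma adjusted p = 0.980). Its sign turned with several settings, and a difference was not detectable at this signal.

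Plat, the tissue-type activator, had the second largest change. It lay at 7.75, 8.15 and 8.56 on the blastema arrays, against 6.51, 6.48, 5.92 and 6.19 on the uninjured arrays. The lowest blastema value was above the highest uninjured value by over a log2 unit. The means were 8.15 ± 0.40 (SD, n = 3) in blastema and 6.27 ± 0.28 (SD, n = 4) in uninjured digit. Its log2 fold change was 1.88 ± 0.22 (SE), or 3.68-fold (limma adjusted p = 0.00386).

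Plau, the urokinase-type activator, lay at 7.43, 8.01 and 7.24 on the blastema arrays, against 7.55, 7.32, 7.47 and 7.14 on the uninjured arrays. Only blastema array 2 was above the uninjured range. The log2 fold change of 0.19 had a 95% interval of -0.25 to 0.64 (limma adjusted p = 0.585). It was -0.04 without blastema array 2 and -0.13 under housekeeping scaling.

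Plaur, the urokinase receptor, lay at 6.60, 6.69 and 7.30 on the blastema arrays, against 5.74, 5.89, 5.73 and 5.92 on the uninjured arrays. The groups were apart, and the uninjured values were close together just above background. The means were 6.87 ± 0.38 (SD, n = 3) in blastema and 5.82 ± 0.10 (SD, n = 4) in uninjured digit. Its log2 fold change was 1.05 ± 0.17 (SE), or 2.07-fold (limma adjusted p = 0.0106). Thus the receptor was higher in the blastema, while for the gene of its ligand Plau no change was detected.

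**Figure D2:**
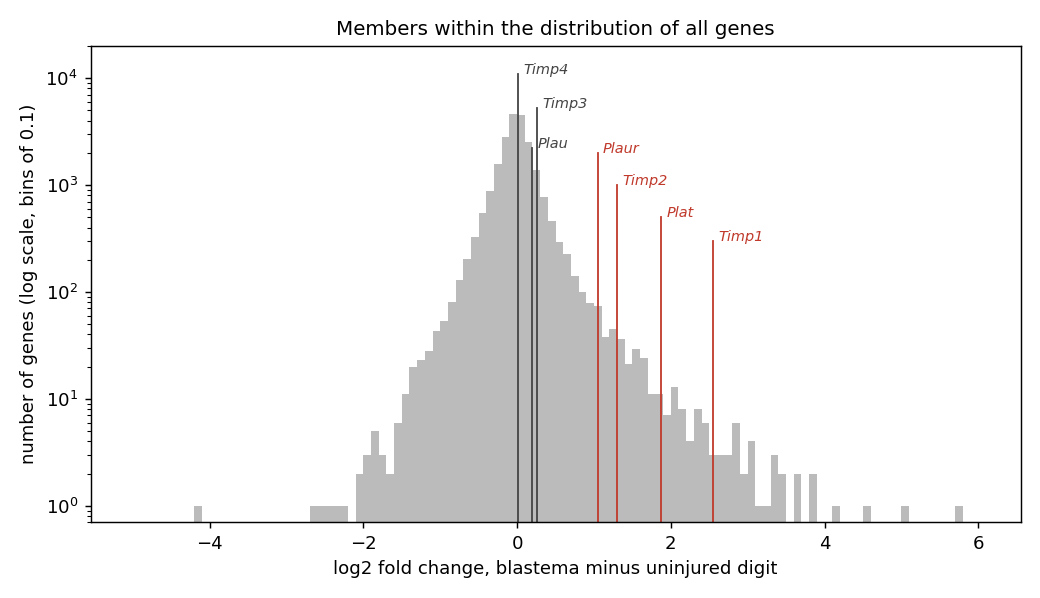
Log2 fold change of all 22180 genes (grey bars, number of genes on a log scale, bins of 0.1), with a line at each of the 7 measured genes. Heights of the lines carry no value. The called genes (red) lie at 1.05 to 2.55, in the upper tail, and Timp3, Plau and Timp4 (dark) at 0.01 to 0.26.

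The changes also differed among the genes themselves. For 13 pairs, chosen after the values were seen, the difference of both genes within each array was added as a row to the limma fit. The fit then held 22193 rows, and the p-values of the pairs do not account for that choice. Such a difference does not change when a whole array is scaled. In 7 pairs a gene was not above the background proxy in a group, Timp1 or Timp4 in each, and no difference is given for them. Timp2 changed by 1.04 ± 0.08 (SE) more than Timp3 on the log2 scale (limma adjusted p = 0.00151). With the uninjured level of Timp1 set at the proxy, its mean changed by 0.94 more than that of Timp2 and 1.98 more than that of Timp3. These lower bounds are differences of means, with no test and without the spread among arrays.

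Between the activators, Plat changed by 1.69 ± 0.30 (SE) more than Plau (95% interval 0.98 to 2.39, limma adjusted p = 0.0154). It did not pass without both arrays numbered 1 (adjusted p = 0.0682). Plat changed by 0.83 ± 0.15 more than Plaur (adjusted p = 0.0174), a difference that lost its call on omission of blastema array 2, blastema array 3 or uninjured array 4 (adjusted p = 0.0755, 0.0726 and 0.0525). Plaur changed by 0.86 ± 0.31 more than Plau, which did not pass (95% interval 0.12 to 1.59, adjusted p = 0.143). It passed under housekeeping scaling (adjusted p = 0.0366). That scaling cannot change a difference within an array, so only the variance or the adjustment was altered. In both pairs with Plaur, its uninjured mean of 5.82 lay just above the background proxy, which limits the measure of its change.

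**Figure D3:**
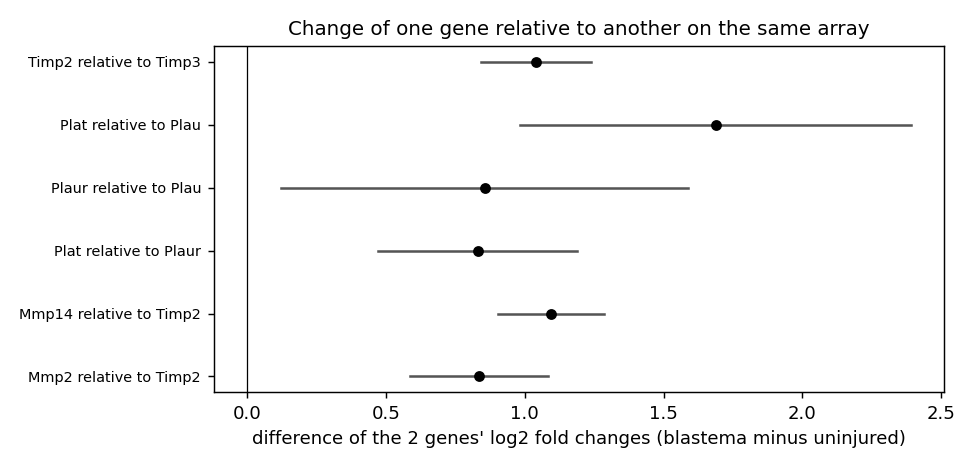
Difference between the log2 fold changes (blastema minus uninjured) of 2 genes on the same array, with 95% intervals from limma, for the 6 pairs in which both genes were above the background proxy in both groups. No interval includes 0, and 5 of the 6 pairs passed an adjusted p of 0.05, all but Plaur relative to Plau.

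Among 23 measured proteases and binding partners of TIMPs, 9 were higher in the blastema, 1 was lower and 13 did not pass, with a median log2 fold change of 0.47, beside 4.98% of all genes called higher and 4.66% lower. Mmp13, a collagenase of bone and cartilage, lay at 9.01, 9.60 and 10.39 on the blastema arrays, against 3.72, 4.86, 4.56 and 5.27 on the uninjured arrays. Mmp9, the gelatinase of osteoclasts and myeloid cells, lay at 9.37, 10.14 and 10.96 on the blastema arrays, against 5.55, 5.54, 5.50 and 5.66 on the uninjured arrays. Both genes, like Timp1, were thus near or under background in uninjured digit. The blastema mean of Mmp13 was 17.7-fold higher than the proxy, under which all 4 uninjured arrays lay. For Mmp13 and Mmp9 against Timp1, which changed more was not measurable at this signal.

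Mmp14, the membrane-anchored protease that forms a complex with Timp2, rose 5.28-fold (log2 fold change 2.40 ± 0.14 SE, limma adjusted p = 0.00122). Mmp2, the gelatinase that this complex activates, rose 4.41-fold (2.14 ± 0.18, adjusted p = 0.00173). Relative to Timp2 on the same array, Mmp14 changed by 1.09 ± 0.08 more and Mmp2 by 0.84 ± 0.11 more (adjusted p = 0.00126 and 0.00503). On these arrays both proteases thus changed more at the RNA level than Timp2, in pairs chosen after the values were seen.

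The other partners called higher were named after their values were seen. They were the metalloproteinase genes Adam12 (log2 fold change 1.86) and Mmp16 (0.82), the Timp1-binding tetraspanin Cd63 (1.66), the integrin chain Itgb1 (0.97) and the VEGF receptor Kdr (0.82), which Timp3 can bind. The uninjured level of Mmp16 was under the background proxy on all 4 arrays. Mmp16 and Kdr did not pass in 5 and 6 of the 7 omissions of a single array. Efemp1, a fibulin that binds Timp3, fell by 1.09 on the log2 scale (limma adjusted p = 0.0119). It was 5.63, 5.94 and 6.13 on the blastema arrays, against 7.08, 7.13, 6.56 and 7.18 on the uninjured arrays, and it did not pass without blastema array 2 (adjusted p = 0.0541) or without both arrays numbered 1 (0.0725).

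Some other proteases and a further inhibitor did not pass. Adam17, the sheddase that Timp3 inhibits, differed by -0.18 (limma adjusted p = 0.349). The aggrecanase Adamts5 differed by 0.53 (adjusted p = 0.343), with 5.40, 5.33 and 6.38 on the blastema arrays, against 5.29, 5.40, 4.59 and 5.43 on the uninjured arrays. Only its value on blastema array 3 was above the background proxy. Reck, a membrane-anchored inhibitor of several metalloproteinases, differed by -0.05 (95% interval -0.35 to 0.26, adjusted p = 0.863) and passed as lower under housekeeping scaling (-0.37, adjusted p = 0.0465). Under that scaling 5926 of all genes were called lower, and the median over all genes was -0.33, close to the value of Reck.

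**Figure D4:**
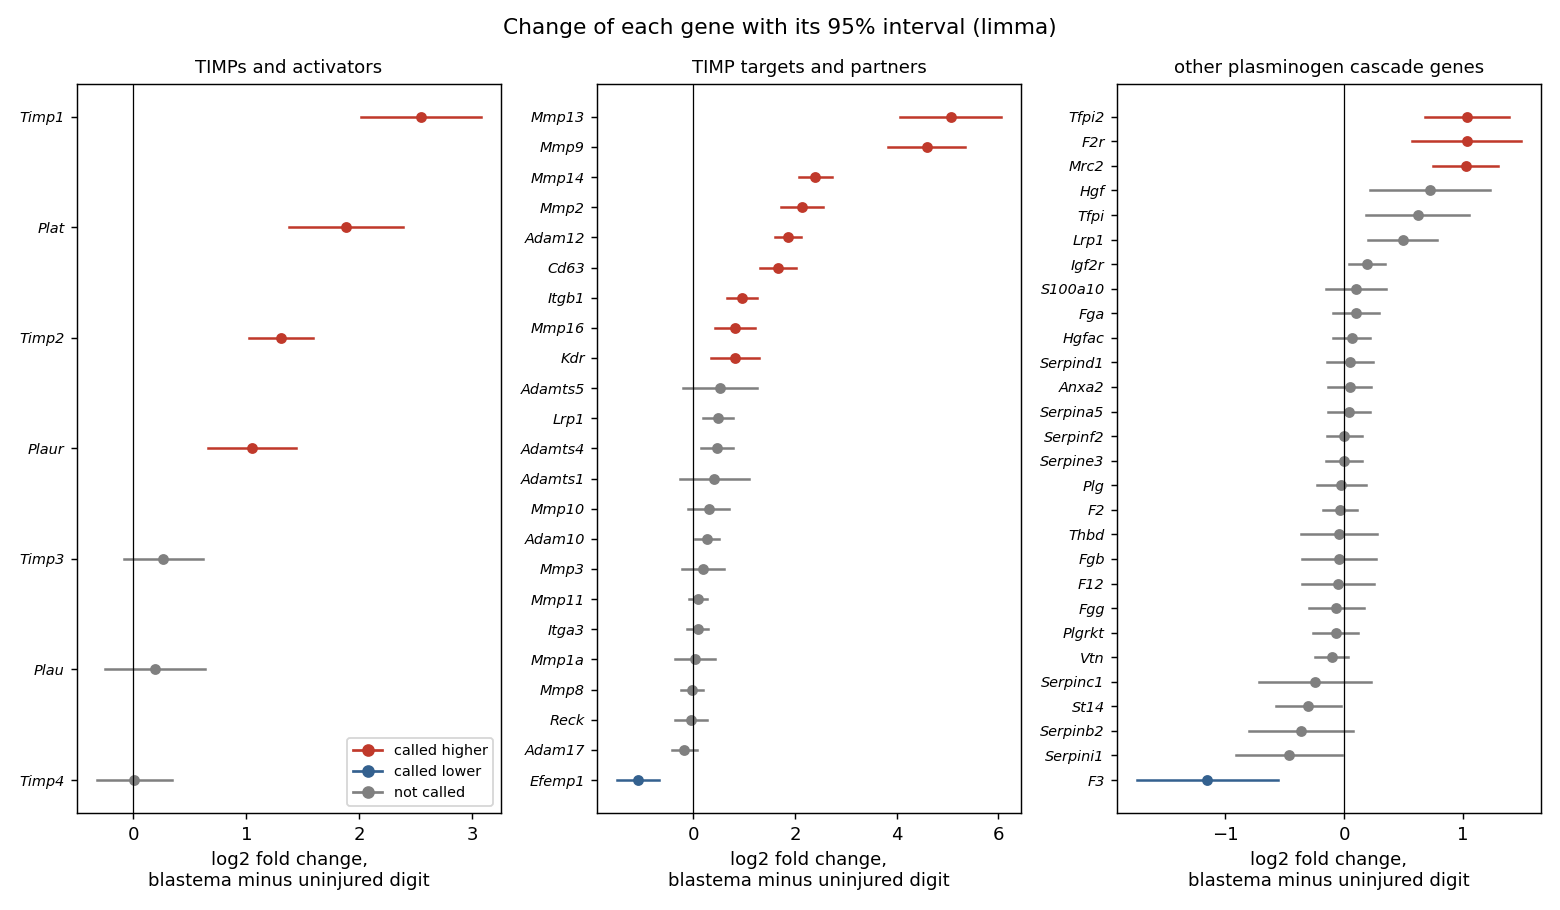
Log2 fold change, blastema minus uninjured digit, with 95% intervals from limma, for the 7 measured genes (left), 23 TIMP targets and partners (middle) and 28 other genes of the plasminogen cascade (right). The horizontal scales differ between panels. Called genes are red (higher) or blue (lower), and the cascade panel holds 3 red genes and 1 blue gene.

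Of 28 other measured genes of the plasminogen cascade, 3 were higher (10.7%, beside 4.98% of all genes), 1 was lower and 24 did not pass. Their median log2 fold change was 0.0004, and 15 of the 28 were not above the background proxy in either group. Plg, the plasminogen gene, which is expressed mainly in liver, was at 4.92, 4.75 and 4.58 on the blastema arrays, against 4.75, 4.75, 4.85 and 4.75 on the uninjured arrays, all under the proxy. The fibrinogen chain genes Fga, Fgb and Fgg, also liver genes, and Serpinf2, the plasmin inhibitor gene, were under it as well. The activators were thus measured in a tissue where the signal of their substrate gene was not above background.

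The 3 measured genes of cell surface plasminogen receptors were well above background and were not called. Anxa2 differed by 0.05 and S100a10, its partner in a complex that binds plasminogen and Plat, by 0.10 (limma adjusted p = 0.757 and 0.622). Plgrkt differed by -0.07 (adjusted p = 0.636) and passed as lower under housekeeping scaling (-0.40, adjusted p = 0.0423). The median over all genes was -0.33 under that scaling, with 5926 genes called lower. Lrp1, the endocytic receptor that clears complexes of activators with serpins and also takes up TIMPs, was at 9.15, 9.46 and 9.56 on the blastema arrays, against 8.97, 9.01, 8.66 and 8.94 on the uninjured arrays. The groups were apart by a small margin, and its log2 fold change of 0.49 lay just short of the threshold (adjusted p = 0.0522), which it passed in 7 of 17 alternative settings.

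Mrc2, the collagen receptor that associates with the urokinase receptor, rose 2.03-fold, with 7.36, 7.49 and 7.77 on the blastema arrays, against 6.42, 6.53, 6.43 and 6.69 on the uninjured arrays (log2 fold change 1.02 ± 0.12 SE, limma adjusted p = 0.00378). Beside this stands a log2 fold change of 1.05 for Plaur. F2r, the thrombin receptor, rose 2.05-fold (1.03 ± 0.20, adjusted p = 0.0194) but lost its call on omission of blastema array 2 or 3, uninjured array 3 or both arrays numbered 1 (adjusted p = 0.0747, 0.0796, 0.0566 and 0.0522). Tfpi2, a Kunitz inhibitor of plasmin and tissue factor complexes, rose with a fitted log2 fold change of 1.04 ± 0.15 (adjusted p = 0.00800). Its uninjured level was under the background proxy on all 4 arrays, and its blastema mean was 1.57-fold higher than the proxy.

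F3, which encodes tissue factor, the trigger of clotting, fell to 7.96, 8.11 and 8.24 on the blastema arrays, against 8.51, 9.45, 9.62 and 9.43 on the uninjured arrays (log2 fold change -1.15 ± 0.26 SE, limma adjusted p = 0.0328). It did not pass in 6 of the 7 omissions of a single array (adjusted p up to 0.110). Serpinb2, an inhibitor of both urokinase and the tissue-type activator that is abundant in epidermis, lay at 10.14, 9.91 and 10.75 on the blastema arrays, against 10.56, 10.54, 10.77 and 10.67 on the uninjured arrays. Its difference of -0.36 did not pass (adjusted p = 0.284), but it did without blastema array 3 (-0.61, adjusted p = 0.0374) and under housekeeping scaling (-0.69, adjusted p = 0.0215). With that scaling 5926 of all genes were called lower, and the median over all genes was -0.33.

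In the mouse, Timp1, Timp3 and Timp4 lie inside the synapsin genes Syn1, Syn3 and Syn2, and Timp2 holds Cep295nl (older name Ddc8), by a RefSeq gene table of GRCm38.p6. Of these 4 neighbours 0 were called by limma, and at an unadjusted p under 0.05 none passed either. Syn1 lay at 6.30, 5.99 and 5.90 on the blastema arrays, against 6.00, 5.83, 5.71 and 5.90 on the uninjured arrays. It differed by 0.20 (limma adjusted p = 0.316), beside a fitted 2.55 for Timp1 within it. Cep295nl differed by -0.09 (adjusted p = 0.492), beside 1.30 for Timp2 around it. Syn2 and Syn3 were not above the background proxy in either group.

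Promoter windows from RefSeq (GRCm38.p6, 250 bases before to 50 after each gene's start) were at hand for 6 of the 8 genes, all but Plau and Plat. The windows of the called genes Timp1, Plaur and Timp2 and, for contrast, of Timp3 are shown in part, each 5′ to 3′ on the gene's strand. Capitals mark the motif matches named below. Positions count from 0 at the annotated first base of the gene. The Timp1 stretch is chrX:20870186-20870215 (plus strand), the Plaur stretch chr7:24462363-24462442 (plus strand), the Timp2 stretch chr11:118355412-118355491 (minus strand) and the Timp3 stretch chr10:86300332-86300411 (plus strand).
Timp1: ggtggaTGAGTAAtgcgtccAGGAAGcctg
Plaur: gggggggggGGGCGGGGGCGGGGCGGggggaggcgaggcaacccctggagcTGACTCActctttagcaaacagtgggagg
Timp2: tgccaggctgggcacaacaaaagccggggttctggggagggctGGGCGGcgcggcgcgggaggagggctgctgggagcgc
Timp3: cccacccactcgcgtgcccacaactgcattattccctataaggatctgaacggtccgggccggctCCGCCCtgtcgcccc

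Motifs were searched on both strands of the 6 windows. The AP-1 consensus TGACTCA was found in the Plaur window only (bases -69 to -63), and 5.2% of 32851 windows in the table hold it. The AP-1 variant TGAGTAA was found in the Timp1 window only (bases 26 to 32), and 2.68% of windows hold it. In the Timp1 stretch it stands beside an Ets core, AGGAAG, at bases 40 to 45. That Ets motif is in 5 of the 6 windows and in 35.4% of all windows. The GC box GGGCGG is also in 5 of the 6 windows, against 35.7% of all, and in Plaur it occurs in a row of 3 copies of which the last 2 share a base. The Timp2 and Timp3 stretches each hold a GC box, on opposite strands, although Timp2 was called and Timp3 was not. The Runx motif TGTGGT (16.8% of all windows) and the TATA box TATAAA (13.6%) were in 0 of the 6. These matches describe letters in the windows, and binding was not measured.

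For each called gene, the 3 genes nearest in pattern were found among all genes by the root mean square difference of log2 values over the 7 arrays, each gene centred on its mean. The difference between the groups enters this measure. Nearest to Timp1 were Ptgs2, an inducible cyclooxygenase (0.13), Creb3l1, a transcription factor of secretory cells (0.14), and the secreted glycoprotein gene Fstl1 (0.15). Nearest to Timp2 were Sparc, a collagen-binding protein of bone matrix (0.057), the xylosyltransferase gene Gxylt2 (0.072) and Serpinf1, a secreted serpin (0.097). Sparc had a log2 fold change of 1.37 beside 1.30 for Timp2.

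Nearest to Plat were Pxdn, a peroxidase that cross-links basement membrane collagen (0.11), the microfibril gene Mfap2 (0.12) and the imprinted adaptor gene Grb10 (0.12). Nearest to Plaur were Clec7a, a receptor for fungal glucans on myeloid cells (0.072), Havcr2, a receptor of myeloid and T cells (0.073), and the glycosyltransferase gene Gcnt4 (0.087). The genes nearest to Plaur had log2 fold changes of 0.90 to 1.02. The means of Clec7a were under the background proxy of 5.52 in both groups (5.35 in blastema, 4.35 in uninjured digit). Havcr2 had a mean of 5.65 in blastema, just above the proxy, and 4.63 in uninjured digit. Signal near background thus limits both genes.

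The blastema arrays were ordered alike for the called genes. Timp1, Timp2, Plat and Plaur were each lowest on blastema array 1 and highest on blastema array 3. Of the 1105 genes called higher, 52.0% had this same order, and 75.4% were lowest on array 1. Marker lists of several cell types were ordered in the same way, and their counts stand beside 4.98% of all genes called higher and 4.66% lower. Macrophage markers had a mean level of 6.74, 7.13 and 7.21 on the blastema arrays, against 6.27 to 6.54 on the uninjured arrays, and 3 of 6 were called higher. Osteoclast markers were at 6.97, 7.24 and 7.44 on the blastema arrays, against 5.90 to 6.07 on the uninjured arrays, with 4 of 5 called higher.

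Other marker lists had higher mean levels in the blastema as well, again beside 4.98% of all genes called higher. Osteoblast markers were at 9.51 to 9.91 in blastema, against 6.06 to 6.999 in uninjured digit, with 4 of 4 called higher. Fibroblast markers were at 10.01 to 10.68 in blastema, against 8.55 to 9.52, with 2 of 5 called higher, and endothelial markers at 7.16 to 7.97, against 6.32 to 7.06, with 2 of 5. Kdr, among the endothelial markers called higher, is also counted among the TIMP partners above. Chondrocyte markers were at 7.41 to 7.73 in blastema, against 6.19 to 6.86, with 3 of 5 called higher. Pericyte and smooth muscle markers were at 8.66 to 9.24, against 7.76 to 8.67, with 2 of 5 called higher. The ranges of that list overlap, and Myh11 alone in it was lower, without passing (log2 fold change -0.66, limma adjusted p = 0.269). The part of these cell types in the changes of Timp1, Timp2, Plat and Plaur was not tested.

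In the remaining lists 3 markers passed, beside 4.98% of all genes called higher and 4.66% lower, though single genes differed by more than their list means. Keratinocyte markers were at 11.60 to 11.74 in blastema, against 11.64 to 11.83 in uninjured digit, with 0 of 4 called. Of the neutrophil markers Ly6g, Csf3r and Mpo were not above the background proxy in either group, and 0 of 5 were called, with mean levels of 5.03 to 5.87 in blastema, against 4.91 to 5.18. S100a8, a calprotectin gene abundant in neutrophils, lay at 6.39, 8.66 and 9.02 on the blastema arrays, against 6.38, 5.97, 6.39 and 6.04 on the uninjured arrays (log2 fold change 1.83, limma adjusted p = 0.101). S100a9, the gene of its partner, lay at 5.0046, 6.73 and 7.08, against 5.53, 4.75, 5.67 and 5.22 (0.98, adjusted p = 0.267). Both were lowest on blastema array 1 and highest on array 3 among the blastema arrays, as the 4 called genes were, and their part in those changes was not tested. Of 3 Schwann cell markers 1 was called lower (6.14 to 6.33 in blastema, against 6.39 to 6.57). Of the adipocyte markers, which bear on Timp4, a gene of fat tissue, Adipoq, Cidec and Lep were not above the proxy, with 0 of 5 called (5.32 to 5.52, against 5.10 to 5.34). Of 5 skeletal muscle markers 4 were not above it and 0 were called (4.69 to 4.76, against 4.62 to 4.93). Tendon markers were at 7.25 to 7.66, against 7.04 to 7.71, with Fmod called higher (log2 fold change 1.96, limma adjusted p = 0.00206) and Thbs4 lower (-1.85, adjusted p = 0.0128). S100a8, S100a9, Fmod, Thbs4 and, above, Myh11 were named after their values were seen.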

How the data were processed

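Total RNA (400 ng per sample) was made into biotin-labelled cDNA and hybridised to 1-colour whole-transcript arrays, per the labels' protocols. The authors deposited log2 values, which per the submitters' processing notes were produced by RMA in the package oligo. The sources used here give no version, setting or genome build. Of 41345 probe sets, the platform annotation lists 1 gene symbol for 23521, several for 1814 and none for 16010. The brightest probe set per gene over the 7 arrays gave 22180 genes, and all 7 measured genes had a single probe set.

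Blastema was compared with uninjured digit by limma (version 3.58.1, R 4.3.3), with lmFit and eBayes, no covariate and no filter. P-values were two-sided and adjusted by Benjamini-Hochberg over all genes. All adjusted p-values come from limma. Log2 fold changes are blastema minus uninjured digit, and intervals are 95%. The step was tested on simulated data. The genes, lists, motifs and pairs were chosen with earlier results of these data known. Named genes are the 8 genes, the 4 called genes with the largest change in each list, 14 genes fixed by name (1 of them is not reported here), the nested neighbours and, where stated, genes named after their values were seen. Of 32 cascade and 24 partner genes, 28 and 23 were measured. Lrp1 is in both lists, and Kdr is both a partner and an endothelial marker. The alternatives were a replicate block, a level filter at the 30th percentile, the background proxy as a filter, the mean of all probe sets, all probe sets, scaling to the 7 measured housekeeping genes, a further quantile normalization, trend and robust variances, array weights and the omission of arrays. Plots were made in Python 3.11.15 with matplotlib 3.10.9.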

Additional observations from a re-analysis of the deposited data

Results flagged for a closer look

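Of 34 named genes checked among the 4 uninjured arrays, 4 had an array far from the other three, as judged by its gap to the nearest value over the range of the group, and chance flags about 1 in 20. Timp4 on uninjured array 1 was 5.25 beside 4.89 to 4.90 on the others (gap over range 0.953), all under the background proxy. Plg on uninjured array 3 was 4.85 beside 4.75 on each of the others (1), also under the proxy. Adamts5 on uninjured array 3 was 4.59 beside 5.29 to 5.43 (0.835). Efemp1 on uninjured array 3 was 6.56 beside 7.08 to 7.18 (0.834). None of the 4 genes called higher among the TIMPs and plasminogen activation genes was among them.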

How the results depend on the processing

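Timp1 and Timp2 kept their call under all 17 alternatives, with log2 fold changes of 2.22 to 2.83 and 0.98 to 1.45. Plat and Plaur kept theirs under 16, the exception being the replicate block. Both filters, both probe set settings and the trend setting could not move the log2 fold changes of these genes, which have a single probe set each. Such settings altered only the variance or the adjustment, and Timp1 passed the background filter through its blastema mean alone. They are included in the counts that follow. Over the 34 named genes, 499 of 569 recomputed values kept their direction and side of the threshold, 31 lost a call, 11 gained one and 28 changed sign, all 28 in genes that were not called. Same-numbered blastema and uninjured arrays deviated from their group means with correlations of 0.286, 0.151 and -0.065 across genes (numbers 1, 2 and 3). Arrays of unlike number gave -0.223 to 0.140, so the values for numbers 1 and 2 were the highest. The labels state no pairing, and the main fit used none. Whether equal numbers mark arrays handled together was not tested. With the replicate number as a block, 2 of the 7 genes were called higher (Plat adjusted p = 0.0586, Plaur 0.0621), the cascade gave 1 higher and 0 lower (Tfpi2 adjusted p = 0.0539, F2r 0.0714), the partners 0 lower, and all genes 295 higher and 304 lower. Plat changed more than Plau and Plaur with adjusted p of 0.0963 and 0.0746 under that block. There Timp4 was -0.024 and Serpinf2 -0.029. Housekeeping scaling gave 497 genes higher and 5926 lower, 6 cascade genes and 3 partners lower, and log2 fold changes of -0.061 for Timp3, -0.32 for Timp4, -0.13 for Plau, -0.32 for Serpinf2, -0.28 for Anxa2, -0.23 for S100a10, -0.12 for Syn1 and -0.32 for Syn2. B2m and Gapdh, which were called higher, are part of that scaling. A further quantile normalization gave -0.010 for Timp4, -0.010 for Serpinf2 and -0.019 for Syn2. Array weights called 6 cascade genes higher. Omitting both arrays numbered 1 called 5 cascade genes higher and 3 lower and 0 partners lower, with Syn3 at 0.0036. Over the omissions of a single array, the genes called higher numbered 457 to 1286 and those called lower 365 to 1009. Cascade genes numbered 2 to 7 higher and 0 to 1 lower, and partners 0 to 1 lower. Log2 fold changes that changed sign in these omissions ran from -0.13 to 0.13 for Timp4, -0.035 to 0.35 for Plau, -0.11 to 0.062 for Plg, -0.029 to 0.032 for Serpinf2, -0.14 to 0.037 for Reck, -0.061 to 0.049 for Syn2 and -0.25 to 0.020 for Syn3. Every alternative with fewer arrays also has fewer degrees of freedom, and so does the replicate block. No blastema array is numbered 4, so uninjured array 4 did not enter the estimates under the block. They equalled those without that array, such as 2.61 for Timp1 and 1.85 for Plat. For the other alternatives the cause was not tested. Signal near background limits Timp4, Plg, Serpinf2, Adamts5, Syn2, Syn3, Clec7a and Havcr2. It also limits the uninjured levels of Timp1, Mmp13, Mmp9, Mmp16 and Tfpi2.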

Other observations

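Of the 61 measured genes of the TIMP, plasminogen, partner and neighbour lists, 22 had exactly the same value on at least 2 arrays, and 19 of these 22 had a mean under the background proxy. Among them was Timp4, with 4.90 on uninjured arrays 2 and 3. Over all genes the share with a repeated value was 52.9%.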
